A study of Mus musculus with 23 samples.

Results

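Transcripts of 7 neutrophil granule proteins were followed in 23 RNA-sequencing libraries, 7 of 47729 gene entries of the deposited table. The genes were taken by symbol and were chosen by their high counts in monocytes from mice without an implant. The levels in that group are therefore given as a description, with no test. The members are Elane, Mpo, Prtn3 and Ctsg, which encode proteins of primary granules, and Camp, Ngp and Ltf, which encode proteins of secondary granules. The study followed the foreign body response, the inflammation and scarring around an implanted material, to a poly(ethylene glycol) (PEG) hydrogel, a water-swollen polymer network.

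All mice were wildtype C57BL/6J, and no sex or age is given in the labels. Monocytes, described as Cx3Cr1+ and Ly6Chi, and macrophages, described as Cx3Cr1+ and Ly6Clo, came, per the labels, from digested subcutaneous tissue. Each cell type was sampled without treatment (the controls) and at days 2, 14 and 28 after a hydrogel was placed under the skin. Each of the 8 groups holds 3 biological replicates, here called A, B and C, except the control macrophages with 2. How many mice went into a library is not stated. Library totals ran from 9303153 to 32994092 counts, and 3 counts, the limit that a count of 0 allows, correspond to 0.091 to 0.322 CPM in single libraries. CPM are counts scaled by the library total.

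Neutrophils make their granule proteins in the bone marrow in a fixed order. Promyelocytes make the primary granule enzymes, some of which monocyte progenitors also transcribe, and the later myelocytes and metamyelocytes make the secondary granule proteins. Mature neutrophils in blood and tissue carry the finished granules and have largely stopped transcribing these genes, while they transcribe genes such as Cxcr2 and Retnlg. Elane (neutrophil elastase), Prtn3 (proteinase 3) and Ctsg (cathepsin G) are serine proteases, and Mpo (myeloperoxidase) makes hypochlorous acid. Camp encodes the cathelicidin antimicrobial peptide, Ltf the iron-binding lactoferrin, and Ngp a protein related to cathelicidins and cystatins.

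In the GRCm38 annotation Prtn3 (chr10:79874476-79883174) ends 3073 bases before Elane (chr10:79886247-79888215), on the same strand. The next gene after Elane is Cfd, which encodes complement factor D. Camp (chr9:109847379-109849617, minus strand), Ngp (chr9:110419747-110423012) and Ltf (chr9:111019271-111042767) lie within 1.2 Mb of one another. Mpo lies at chr11:87793581-87804413 and Ctsg at chr14:56099881-56102574. Elane and Prtn3 are neighbours that differed in level at day 2, and Camp and Ngp are a pair whose proportions differed between groups, so the promoters of these 4 are shown, each with the 250 bases before the RefSeq start (GRCm38.p6). Elane is at chr10:79886062-79886311 and Prtn3 at chr10:79879417-79879666, both on the plus strand. The RefSeq starts of all 4 lie inside the longer GENCODE genes, so at least part of each printed stretch is annotated as gene. Ngp is at chr9:110419558-110419807 on the plus strand and Camp at chr9:109849457-109849706 on the minus strand. Sequences run 5′ to 3′ on the gene's strand, and capitals mark GCAAT (a core of C/EBP sites), AGGAAG (an ETS core) and AACGG (a MYB core) on either strand.
Elane: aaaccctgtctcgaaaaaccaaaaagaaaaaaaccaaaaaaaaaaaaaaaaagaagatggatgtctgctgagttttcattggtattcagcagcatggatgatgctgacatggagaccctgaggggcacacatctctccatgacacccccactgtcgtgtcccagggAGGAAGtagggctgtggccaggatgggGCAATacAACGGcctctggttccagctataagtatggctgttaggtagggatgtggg
Prtn3: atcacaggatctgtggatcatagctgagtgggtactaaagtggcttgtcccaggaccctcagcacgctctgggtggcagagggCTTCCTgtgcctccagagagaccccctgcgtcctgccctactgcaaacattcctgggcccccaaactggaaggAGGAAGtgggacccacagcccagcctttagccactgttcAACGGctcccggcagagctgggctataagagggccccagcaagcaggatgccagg
Camp: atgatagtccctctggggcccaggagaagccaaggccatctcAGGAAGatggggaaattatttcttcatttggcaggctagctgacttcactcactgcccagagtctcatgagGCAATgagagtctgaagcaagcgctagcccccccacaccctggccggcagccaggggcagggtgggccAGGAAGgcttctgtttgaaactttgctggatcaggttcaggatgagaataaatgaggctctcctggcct
Ngp: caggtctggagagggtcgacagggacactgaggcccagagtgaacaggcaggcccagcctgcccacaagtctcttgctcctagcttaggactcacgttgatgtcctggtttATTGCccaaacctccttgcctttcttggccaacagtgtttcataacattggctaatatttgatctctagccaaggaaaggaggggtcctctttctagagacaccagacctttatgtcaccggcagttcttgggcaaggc
AACGG was found before Elane, 50 bases from the start, and before Prtn3, 55 bases from the start, and before none of the other 5 members. Of 32817 promoters of this length, 14.5% hold it on one strand or the other. GCAAT stood in 5 of the 7 promoters against 23.1% of all, and AGGAAG in 6 of 7, all but Ngp, against 29.5%. In the promoters printed, no match of 1 motif overlapped a match of another. The motifs were picked after the sequences had been seen, and a match describes the sequence only.

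All values are from bulk libraries, in which fewer cells of a type and less RNA per cell cannot be told apart. Marker genes of other cells differed between the groups. The summed level of 8 macrophage markers was 486 to 605 CPM in the control monocytes, 2348 to 5227 CPM in implant monocytes and 5279.65 to 23366 CPM in macrophages. The complement gene C1qb measured 11.2, 13.2 and 13.2 CPM in the control monocytes and 639.5 to 2296 CPM in implant monocytes. The summed level of 6 fibroblast markers was 0.0606 to 0.197 CPM in the control monocytes, with 3 of the 6 at 0 throughout, and 6.37 to 605 CPM in implant monocytes. The 8 classical monocyte markers summed to 10521.5 to 16968 CPM in the control monocytes and 5313 to 10025 CPM in implant monocytes. The 7 haematopoietic progenitor markers summed to 50.8 to 64.6 CPM in the control monocytes and 1.48 to 37.2 CPM in the other 20 libraries, and the 9 eosinophil, basophil and mast cell markers to 1.05 to 2.58 CPM and 0.101 to 15.6 CPM. The 8 erythroid markers summed to 33.1 to 220 CPM and 1.49 to 1980 CPM. The progenitor markers were not uniform, and Hoxa9 had no count in the control monocytes. Of 5 tested, only Flt3 was called higher in control monocytes than in control macrophages (edgeR, adjusted p under 0.05). Flt3 was also called lower in monocytes of days 2, 14 and 28 than in control monocytes. Cd34 was called higher at days 14 and 28 by the same test. The labels give subcutaneous tissue for all groups. Whether these differences follow the implant or the source of the control cells cannot be told apart here, which applies to each control monocyte value below. The part of these markers in the granule gene levels was not tested.

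All 7 genes were detected in each control monocyte library, and 6 of them were lower in all of the other 20 libraries. The genes were chosen for high counts there, and the share of all genes separated in this way is not given here. As another measure, edgeR called 12.5% of all genes in either direction between control monocytes and control macrophages. It called 27%, 37.7% and 18.2% between monocytes of days 2, 14 and 28 and control monocytes. Nothing is read from the members against these shares, since the control monocytes chose them. Elane measured 61.1, 68.9 and 41.3 CPM in the control monocytes A, B and C, against a highest value of 4.17 CPM elsewhere, in day 2 monocytes C. Mpo measured 45.8, 49.4 and 42.6 CPM, and at most 1.72 CPM elsewhere, in day 2 monocytes A. Ctsg measured 1.88, 4.80 and 3.90 CPM, and at most 1.31 CPM elsewhere, in day 14 monocytes A. These 3 primary granule genes were thus separated from every other library, Ctsg by the smallest step.

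The secondary granule genes stood higher still in the same libraries. Ngp measured 1602, 1727 and 1079.6 CPM, Camp 450.1, 511 and 304 CPM, and Ltf 621, 425 and 481 CPM. Outside the control monocytes their highest values were 16.4, 1.93 and 3.01 CPM, all in day 2 macrophages C. The control monocytes held 99.3% of all Ngp counts in the series, 99.8% of Camp, 99.3% of Ltf, 98.3% of Mpo and 96.9% of Elane. They held 77.1% of Ctsg counts and only 37.6% of Prtn3 counts.

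Between genes, levels were compared per kilobase of exon. In the control monocytes the order was Ngp at 1202 ± 280.9 CPM per kb (SD, n = 3), Camp at 556 ± 140.4, Ltf at 148 ± 29.3, Elane at 58.0 ± 14.5, Mpo at 13.4 ± 0.999, Prtn3 at 10.04 ± 1.46 and Ctsg at 3.41 ± 1.45. No gene's range over the 3 libraries overlapped that of the next. Every secondary granule gene therefore ranked above every primary granule gene in this group.

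**Figure D1:**
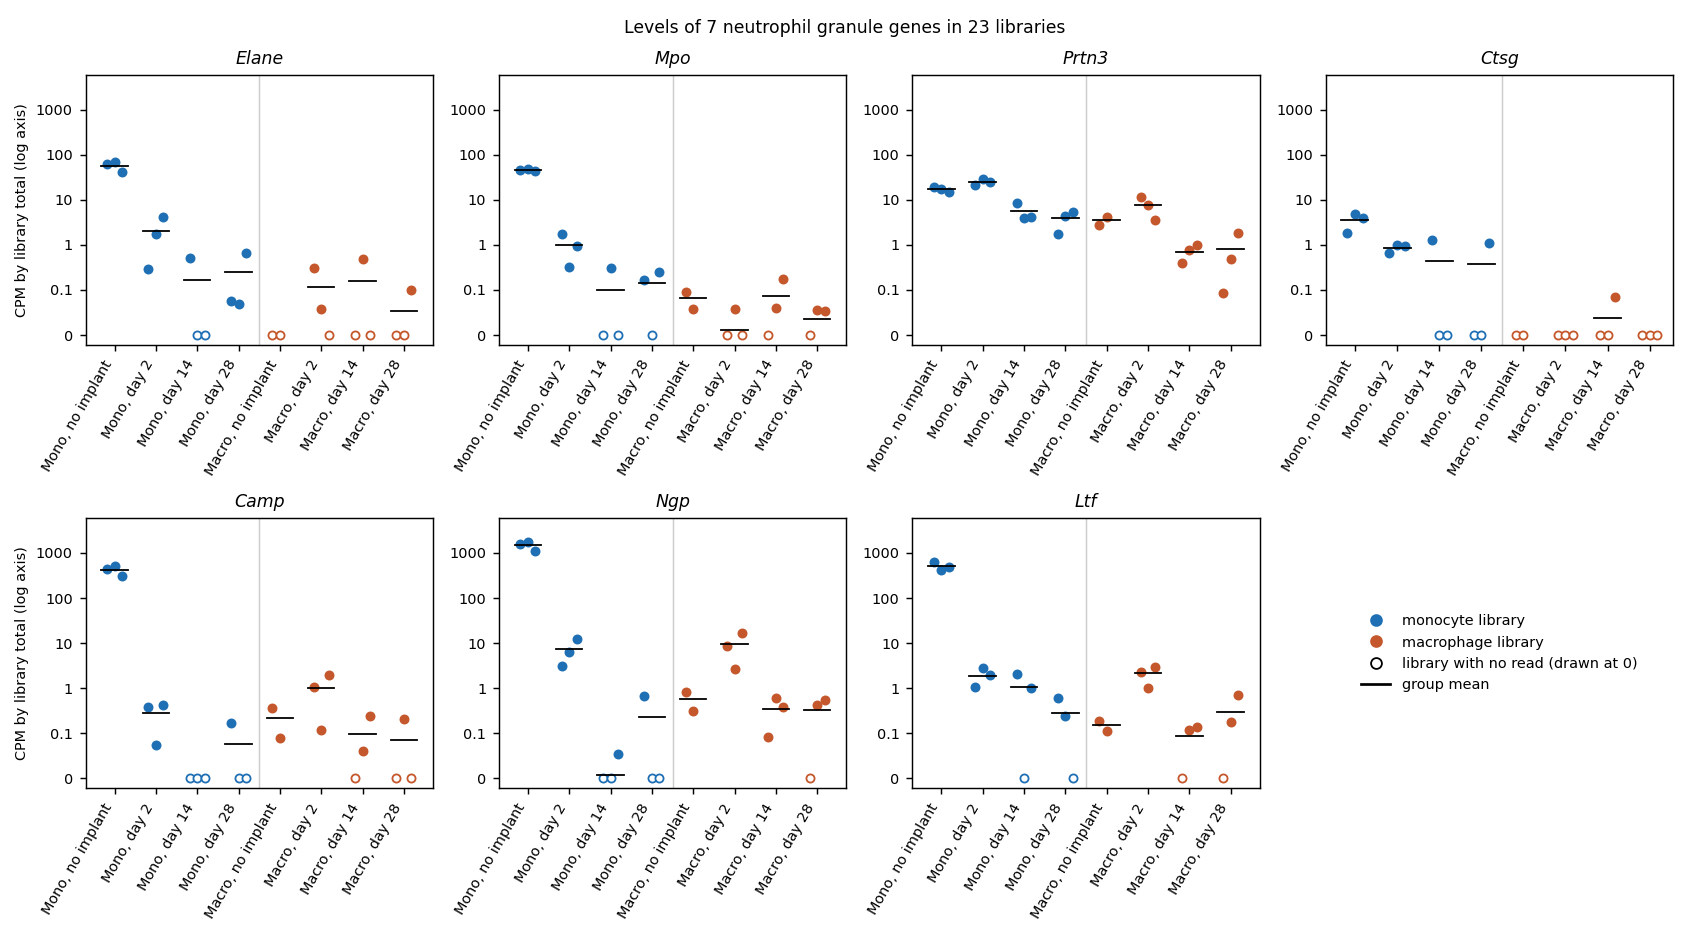
CPM by library total (log axis) of the 7 genes in each of the 23 libraries, by group, with lines at group means. Open points are libraries with no read, drawn at the axis position marked 0. Control monocytes stand above all other libraries for 6 genes, and Prtn3 is the exception, with day 2 monocytes highest.

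Prtn3 did not share this pattern. It was the member detected in all 23 libraries, and day 2 monocytes had the highest levels, at 21.4, 29.4 and 24.3 CPM, above the 19.7, 17.8 and 14.7 CPM of the control monocytes. These 2 groups did not overlap, and the fitted difference between them was 0.98 ± 0.65 on the log2 scale (SE), which is given as a description because control monocytes are in it. Day 14 monocytes measured 8.65, 3.87 and 4.12 CPM and day 28 monocytes 1.75, 4.33 and 5.48 CPM. Among macrophages, Prtn3 measured 2.75 and 4.26 CPM in controls, 11.3, 7.61 and 3.55 CPM at day 2, 0.404, 0.753 and 0.984 CPM at day 14, and 0.0867, 0.497 and 1.88 CPM at day 28. In the order of group means, day 2 macrophages, day 14 monocytes, day 28 monocytes and control macrophages overlapped one after another and came below the control monocytes. The macrophages of days 28 and 14 came last and overlapped.

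Its neighbour Elane kept no such level. Elane made up 75.6%, 79.5% and 73.8% of the joint Elane and Prtn3 counts in the control monocytes. In day 2 monocytes the share was 1.38% (exact 95% binomial interval 0.377 to 3.49), 5.56% (3.83 to 7.75) and 14.6% (11.9 to 17.7). The intervals of the 3 day 2 libraries did not overlap, and all shares lay far below the controls. These intervals treat reads as independent, although cDNA was amplified without molecular identifiers. They test no difference from the control monocytes, which chose the members. Cfd and Plppr3, the genes on either side of this pair, moved otherwise. Cfd had no count in the control monocytes and up to 9.16 CPM in day 14 monocytes. Plppr3, which overlaps the annotated start of Prtn3 on the opposite strand, measured 23.6 to 26.9 CPM in control macrophages and 1.41 to 11.2 CPM in control monocytes. The library kit does not keep the strand, so reads in that overlap cannot be assigned to one of the 2 genes. Gm11505, antisense to Mpo, had no count in any group. Cdc25a, next to Camp, measured 14.7, 7.43 and 16.5 CPM in control monocytes and at most 4.37 CPM elsewhere. Klhl18, next to Ngp, measured 39.4, 11.6 and 27.6 CPM in control monocytes. It measured 22.3 and 12.4 CPM in control macrophages and at most 8.30 CPM in implant libraries. Nme6, Ptpn23 and Ccrl2, also next to Camp, Ngp and Ltf, were not highest in control monocytes. Whether these levels are linked was not tested.

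Outside the control monocytes the other primary granule genes were low. They were detected in all day 2 monocyte libraries, by up to 87 counts (Elane in C). In most later monocyte libraries and most macrophage libraries they had few or no reads. Elane measured 0.299, 1.73 and 4.17 CPM in day 2 monocytes and at most 0.666 CPM in any later monocyte or any macrophage library, with no read in 9 of the 20 libraries. Ctsg was found in all 3 day 2 monocyte libraries (0.672, 0.972 and 0.958 CPM), in day 14 monocytes A (1.31 CPM), in day 28 monocytes C (1.13 CPM) and in day 14 macrophages C (2 counts). In the other 14 libraries Ctsg had no read. Mpo measured 1.72, 0.324 and 0.958 CPM in day 2 monocytes and 0.306 CPM or less in all later monocytes and all macrophages.

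Summed per kilobase, the secondary granule genes exceeded the primary ones in the control monocytes by 4.56, 4.48 and 4.42 on the log2 scale, a mean of 4.48 ± 0.07 (SD, n = 3), or 23.5, 22.3 and 21.4 times. In day 2 monocytes the same log2 ratio was -2.04, -1.68 and -0.78, so primary transcripts were in excess in all 3. Much of that excess was Prtn3. Without Prtn3 the day 2 monocyte ratios were 1.21, 1.14 and 1.06, above 0 and still below the 4.75, 4.63 and 4.61 of the control monocytes without it. In day 2 macrophages the ratio was 0.44, -0.75 and 3.04, a spread of several log2 units among 3 libraries of 1 group. Day 14 monocytes gave -3.47 (A) and -2.87 (C), and B had no secondary granule read. Control macrophages gave -0.41 and -2.68. Across the other macrophage groups and day 28 monocytes, the libraries with at least 10 counts in both sums gave -0.90 to 1.20.

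Camp and Ngp also stood in a different proportion at day 2. Camp was 21.9%, 22.8% and 22.0% of the joint Camp and Ngp counts in the 3 control monocyte libraries, with exact 95% intervals that together reach from 21.6% to 23.2%. In day 2 macrophages it was 10.7% (7.15 to 15.1), 4.17% (0.868 to 11.7) and 10.5% (6.36 to 16.1). In day 2 monocytes it was 10.6% (3.55 to 23.1), 0.826% (0.0209 to 4.52) and 3.35% (1.54 to 6.26). In 5 of these 6 day 2 libraries the interval lay below those of the control monocytes, and day 2 monocytes A, with 47 joint counts, overlapped them. Elsewhere, 7 libraries with at least 10 joint counts had shares of 0% to 38.9%, with wide intervals, and only that of day 28 macrophages C (0%, at most 20.6%) lay below those of the control monocytes. These intervals cover counting error only, and cDNA was amplified without molecular identifiers. They describe single libraries and test no difference from the control monocytes, which chose the members.

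**Figure D2:**
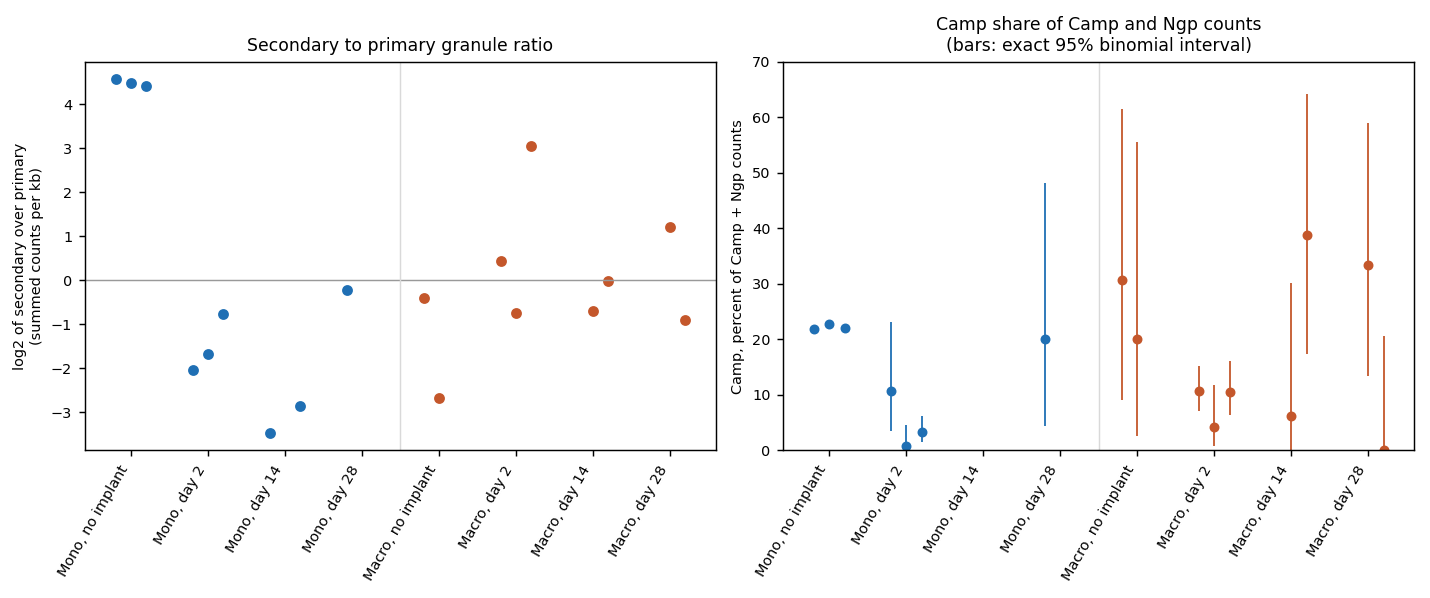
Left, log2 ratio of secondary to primary granule counts per kb in each library with at least 10 counts in both sums. Right, Camp as a percent of Camp plus Ngp counts, with exact 95% binomial intervals, in each library with at least 10 joint counts. The 3 control monocyte libraries lie together at 4.42 to 4.56 on the left and at 21.9% to 22.8% on the right.

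The first question open to a test was whether granule transcripts differed between implant macrophages at day 2 and control macrophages. Ngp measured 8.82, 2.68 and 16.4 CPM at day 2 and 0.826 and 0.307 CPM in controls, and Ltf 2.34, 1.01 and 3.01 CPM against 0.184 and 0.115 CPM. The groups did not overlap for either gene. By edgeR's quasi-likelihood test with Benjamini-Hochberg adjustment over 16260 genes, Ngp rose by 4.77 ± 1.10 on the log2 scale (SE, adjusted p = 0.0053) and Ltf by 4.43 ± 1.35 (adjusted p = 0.028). So 2 of the 7 members were called higher, where 10.1% of all genes tested were. Both calls lean on the small control group. Ngp had an adjusted p of 0.051 without control macrophage A and 0.079 without B. Ltf had 0.15 and 0.18 without these, 0.074 without day 2 macrophage A and 0.071 without C. Camp (1.05, 0.117 and 1.93 CPM against 0.367 and 0.0768 CPM) did not pass, with a log2 difference of 2.96 ± 1.24 and an adjusted p of 0.11 by edgeR. It had 0.042 without day 2 macrophage B, the library with 3 Camp counts. Prtn3 did not pass either (1.70 ± 0.77, adjusted p = 0.14 by edgeR).

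The comparisons with day 14 and day 28 share the same 2 control libraries. At these days no member was called against control macrophages by edgeR, where 8.21% and 10.6% of all genes were called in either direction. At an unadjusted p under 0.05 there was 1 member at each time, Prtn3, and DESeq2 called 0 at both. Prtn3 was lower than in the controls with no overlap at either time, with log2 differences of -1.73 ± 0.75 (adjusted p = 0.17) and -1.64 ± 0.74 (adjusted p = 0.18) by edgeR. Without day 28 macrophage C, the library with the highest Prtn3 of its group, the day 28 difference was -3.13 with an adjusted p of 0.011.

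Within the implant groups, 2 granule genes fell after day 2, in comparisons that share the day 2 libraries. In macrophages Ngp fell to 0.0809, 0.595 and 0.387 CPM at day 14 and to 0, 0.426 and 0.538 CPM at day 28. All 3 libraries of each later day lay below all 3 of day 2. The edgeR log2 differences were -4.74 ± 0.91 (adjusted p = 0.015) and -4.92 ± 0.91 (adjusted p = 0.0058). Prtn3 fell in the same comparisons, by 3.42 ± 0.73 at day 14 (adjusted p = 0.03) and by 3.33 ± 0.72 at day 28 (adjusted p = 0.015, edgeR). These were 2 of 7 members lower at each time, against 0.277% of all genes at day 14 and 1.97% at day 28. The day 28 call of Ngp was the only member call kept when each library was left out in turn and in every other alternative fit.

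The remaining calls in macrophages over time depended on single libraries. Ngp at day 14 had an adjusted p of 0.053 without day 2 macrophage A, 0.062 without day 2 C, 0.098 without day 14 A and 0.081 without day 14 B. Prtn3 at day 14 had 0.16 without day 2 A, 0.088 without day 2 B, 0.19 without day 14 A and 0.18 without day 14 B. Prtn3 at day 28 had 0.076 without day 2 A, 0.055 without day 28 A, 0.083 without day 28 B and 0.071 when only these 2 groups were fitted. Ltf and Camp had lower means at both later days and did not pass by edgeR. For Ltf the edgeR log2 differences were -4.52 ± 1.14 (adjusted p = 0.084) and -2.88 ± 0.96 (adjusted p = 0.086), and for Camp -3.19 ± 1.08 (adjusted p = 0.28) and -3.74 ± 1.12 (adjusted p = 0.064). Camp did not pass the low count filter on the groups compared alone at either day. Ltf at day 14 had an adjusted p of 0.029 by DESeq2. Ltf at day 28 had an adjusted p of 0.033 without day 28 C.

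In monocytes Ngp was also lower after day 2. It measured 3.14, 6.48 and 12.5 CPM at day 2. At day 14 the 3 libraries together held 1 Ngp count, a ratio of 543-fold lower with a counting interval of 97.0 to 21505, and the test gave an adjusted p of 0.0074 (edgeR). At day 28 the whole signal was the 12 counts of library A, 0.678 CPM, with 0 in B and C, and the log2 difference was -5.12 ± 0.99 (adjusted p = 0.017, edgeR). Ngp was 1 of 7 members called lower at each time, against 0.24% and 0.48% of all genes. The day 14 call had an adjusted p of 0.058 without day 2 C, where edgeR called 0 of all genes in place of 118, and 0.065 without day 14 C. The day 28 call had 0.081 without day 28 B, 0.059 without day 28 C, and 0.13 when only the 2 groups were fitted.

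No other member was called in monocytes over time. Prtn3 at day 28 lay below day 2 in all libraries and had a log2 difference of -2.75 ± 0.69 (adjusted p = 0.068 by edgeR, 0.0016 by DESeq2). Camp went from 5, 1 and 9 counts at day 2 to no count in the 3 libraries of day 14, at least 6.44-fold lower against a floor of 3 counts over the group. Mpo at day 14 had -3.14 ± 1.04 (adjusted p = 0.19 by edgeR), with all 6 counts of day 14 in library B, and did not pass the low count filter on these groups alone. Ltf did not follow Ngp at day 14. It measured 2.11, 0 and 1.02 CPM there against 1.05, 2.76 and 1.92 CPM at day 2 (log2 difference -0.49 ± 0.86), although Ngp had only 1 count in the same 3 libraries.

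Whether the fall from day 2 to day 28 differed between the cell types was tested as an interaction. None of the 7 members passed by edgeR, at the adjusted threshold or at an unadjusted p under 0.05, and 0 of all genes (0%) were called. Unadjusted, 2053 genes were under 0.05, and DESeq2 called 312 genes and no member. Without day 28 macrophage C, edgeR called 430 genes and again no member. For Ngp the difference between the falls was 0.20 ± 1.27 and for Prtn3 -0.58 ± 0.93 on the log2 scale, so standard errors of about 1 log2 unit limit what could be seen.

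**Figure D3:**
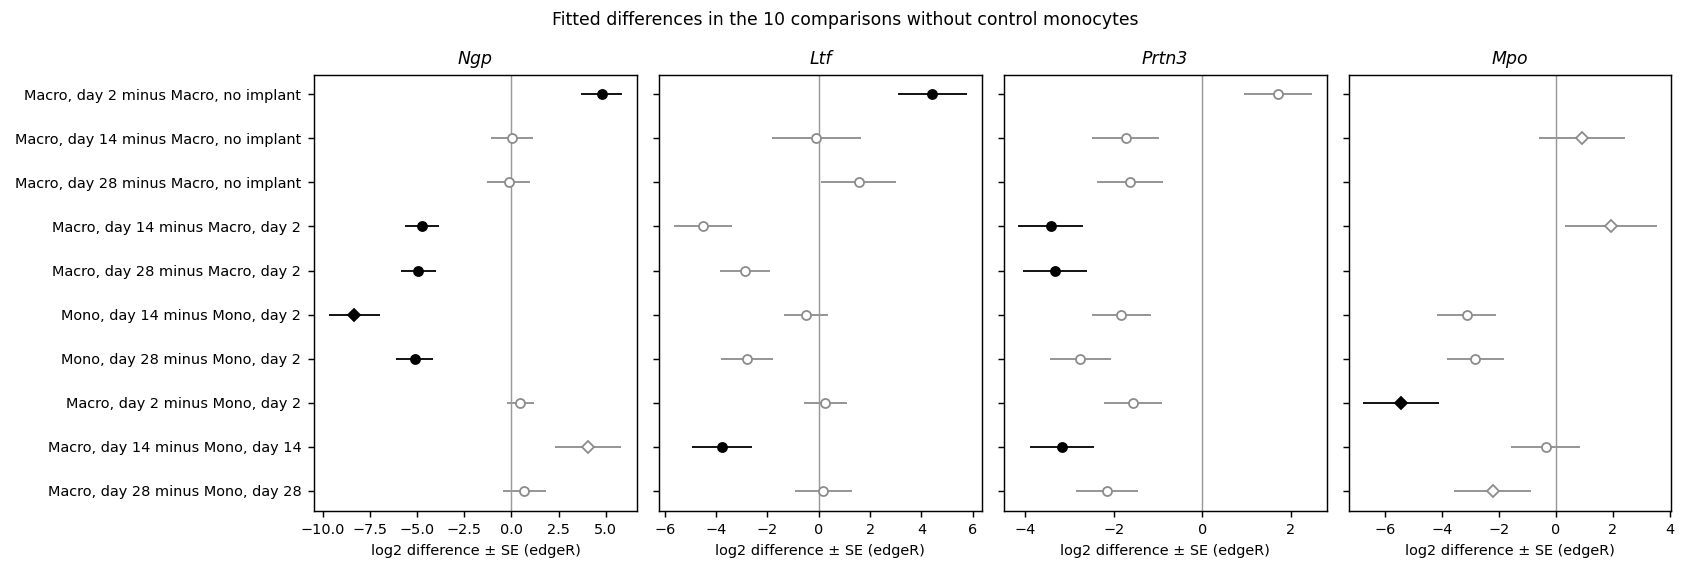
Log2 differences with standard errors (edgeR) of Ngp, Ltf, Prtn3 and Mpo in the 10 comparisons that leave out control monocytes. Black points passed an adjusted p of 0.05, and diamonds mark comparisons in which a group held 3 counts or fewer, whose fitted value depends on the prior count. Ngp passed in 5 comparisons, Prtn3 in 3, Ltf in 2 and Mpo in 1. Mpo, and Ltf in day 14 macrophages against day 14 monocytes, were tested only because control monocytes hold many counts. Comparisons with 3 counts or fewer in both groups are left out.

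Between the cell types at day 2, Mpo was the one member called, and the 3 secondary granule genes overlapped. Mpo had 0, 1 and 0 counts in day 2 macrophages and 23, 6 and 20 counts in day 2 monocytes, 56.3-fold lower in macrophages with a counting interval of 9.65 to 2270 (adjusted p = 0.026, edgeR). That was 1 of 7 members called lower, against 1.78% of all genes. Mpo entered this test only through the high counts of the control monocytes, which chose it, and did not pass the low count filter on the day 2 groups alone. The call was lost without any 1 of 5 of the 6 libraries, with adjusted p of 0.056 to 0.13, and kept only without day 2 monocyte B. Ctsg had no count in 3 macrophage libraries and 9, 18 and 20 counts in monocytes, at least 18.01-fold lower, and did not pass (adjusted p = 0.19, edgeR). It had 0.037 when only the 2 groups were fitted. Prtn3 was lower in macrophages with no overlap (log2 difference -1.57 ± 0.66, adjusted p = 0.24), as was Elane with overlap (-3.67 ± 1.39, adjusted p = 0.18, edgeR). Like Mpo, Elane and Camp did not pass the low count filter on the day 2 groups alone and entered only through the control monocytes. The secondary granule genes overlapped between the cell types, with log2 differences of 0.48 ± 0.73 for Ngp, 0.26 ± 0.85 for Ltf and 1.87 ± 0.99 for Camp. These 3 errors leave room for differences of more than 1 log2 unit. Whether the 2 classes differ in this contrast was not tested.

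At day 14, Prtn3 was lower in macrophages than in monocytes, at 0.404, 0.753 and 0.984 CPM against 8.65, 3.87 and 4.12 CPM (log2 difference -3.16 ± 0.72, adjusted p = 0.011, edgeR). Ltf was also called lower (-3.77 ± 1.16, adjusted p = 0.045), although monocyte library B had no Ltf count and the groups overlapped. With 2 of 7 members called lower, the background was 4.02% of all genes. Only Prtn3 passed the low count filter on the day 14 groups alone, so Ltf entered the test through the control monocytes that chose it. The Prtn3 call had a rounded adjusted p of 0.05 and no longer passed without day 14 macrophage B, and likewise without day 14 monocyte A. Ltf was kept among the single libraries left out only without monocyte B, and otherwise had 0.067 to 0.20. With the replicate letter as a block its adjusted p was 0.071. Ngp went the other way without passing, with 28 counts in macrophages and 1 in monocytes, a 24.3-fold ratio with a counting interval of 4.01 to 992 (adjusted p = 0.14, edgeR).

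At day 28 no member was called between the cell types by edgeR, where 2.52% of all genes were called in either direction. Ctsg and Prtn3 were the 2 members at an unadjusted p under 0.05, of which only Prtn3 passed the low count filter on the day 28 groups alone, and DESeq2 called 1, Prtn3. Prtn3 measured 0.0867, 0.497 and 1.88 CPM in macrophages and 1.75, 4.33 and 5.48 CPM in monocytes, with an overlap of 1 library (log2 difference -2.15 ± 0.70, adjusted p = 0.11 by edgeR, 0.02 by DESeq2). Without day 28 macrophage C it had an adjusted p of 0.0073. All 22 Ctsg counts of this time came from monocyte library C.

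Other genes of granulocyte development were read from fixed lists. Of 10 other secondary and tertiary granule genes, all were tested and 7 rose in day 2 macrophages against controls (Cd177, Chil3, Hp, Lcn2, Mmp8, Olfm4 and Pglyrp1), 0 fell and 3 did not pass. Their median log2 difference was 5.36, or 4.55 over 9 genes with genes at 0 set to their bound. It was -0.16 over all genes, of which 10.1% rose. From day 2 to day 28 in macrophages, Cd177, Chil3, Hp, Lcn2, Mmp8, Olfm4 and Pglyrp1 fell and 0 rose. The median was -2.93, beside 0.04 over all genes, of which 1.97% fell. From day 2 to days 14 and 28 in monocytes, 0.24% and 0.48% of all genes fell. Of the list, 2 fell to day 14 (Lcn2 and Mmp9) and 4 to day 28 (Hp, Lcn2, Mmp9 and Pglyrp1), and none rose.

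These genes were not restricted to control monocytes as Camp, Ngp and Ltf were. Lcn2, which encodes the iron-siderophore binding protein lipocalin 2 of secondary granules, measured 186, 211 and 131 CPM in control monocytes, 189, 148 and 151 CPM in day 2 monocytes and 141, 106 and 144 CPM in day 2 macrophages. The control monocytes overlapped each day 2 group, and the day 2 groups did not overlap each other. Chil3, a chitinase-like protein, measured 1257 to 3294 CPM in control monocytes and 5424 to 7447 CPM in day 2 monocytes, and Hp, haptoglobin, 807 to 1427 CPM and 2150 to 2397 CPM. Itgb2l, an integrin beta chain of immature neutrophils, did resemble the members, at 25.8, 8.65 and 13.3 CPM in control monocytes and at most 1.12 CPM elsewhere.

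Of 7 other primary granule and promyelocyte genes, 6 were tested. Against control macrophages, 2 rose at day 2 (Cst7 and Srgn), 1 fell (Serpinb1a) and 3 did not pass. Of all genes, 10.1% rose and 7.1% fell there. The median log2 difference of the list was 2.03, or 0.02 over 5 genes with genes at 0 set to their bound. Srgn encodes the granule proteoglycan serglycin, which many myeloid cells make, and Serpinb1a an inhibitor of neutrophil serine proteases. Serpinb1a measured 82.6, 91.2 and 84.4 CPM in control monocytes, 39.4, 53.0 and 64.2 CPM at day 2 and 6.62 to 11.8 CPM at day 14. Its fall from day 2 to day 14 in monocytes passed (log2 difference -2.18 ± 0.38, adjusted p = 0.0092, edgeR). Ms4a3, a marker of granulocyte and monocyte progenitors, measured 13.7, 14.9 and 6.65 CPM in control monocytes, at most 0.216 CPM in day 2 monocytes, and had no read in any macrophage or later monocyte library.

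Mature neutrophil markers were not all distributed alike. Retnlg measured 1.52, 0.658 and 1.54 CPM in control monocytes, the group with the highest Ngp, and 301, 83.5 and 220.4 CPM in day 2 monocytes and 341, 158 and 215 CPM in day 2 macrophages. Ly6g, the surface antigen used to sort mouse neutrophils, measured 1.58, 1.84 and 0.524 CPM in control monocytes, 5.23, 3.89 and 9.15 CPM in day 2 monocytes and 16.9, 8.78 and 8.81 CPM in day 2 macrophages. Csf3r, the G-CSF receptor, was instead highest in control monocytes, at 409, 263 and 469.8 CPM, against 136, 114 and 199 CPM in day 2 monocytes. S100a8, a calcium-binding protein abundant in neutrophils and monocytes, overlapped between these groups, at 827, 996 and 569 CPM and 2228, 840.3 and 1292 CPM. Of the 11 mature neutrophil genes, 9 rose in day 2 macrophages against controls, 0 fell and 2 did not pass. The median was 8.42 (7.24 with bounds), and 10.1% of all genes rose. From day 2 to day 28, 8 of 11 fell in macrophages and 4 of 11 in monocytes, and 0 rose. Of all genes, 1.97% fell in macrophages and 0.48% in monocytes. Summed over the list, levels were 1533 to 2150 CPM in control monocytes, of which S100a8 and S100a9 made up most, with Stfa2l1 and Cxcr1 at 0, and 2144 to 5819 CPM in the 6 day 2 libraries. In the day 2 comparisons above, the called Ngp and Ltf thus moved together with these markers, whose part in the result was not tested.

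**Figure D4:**
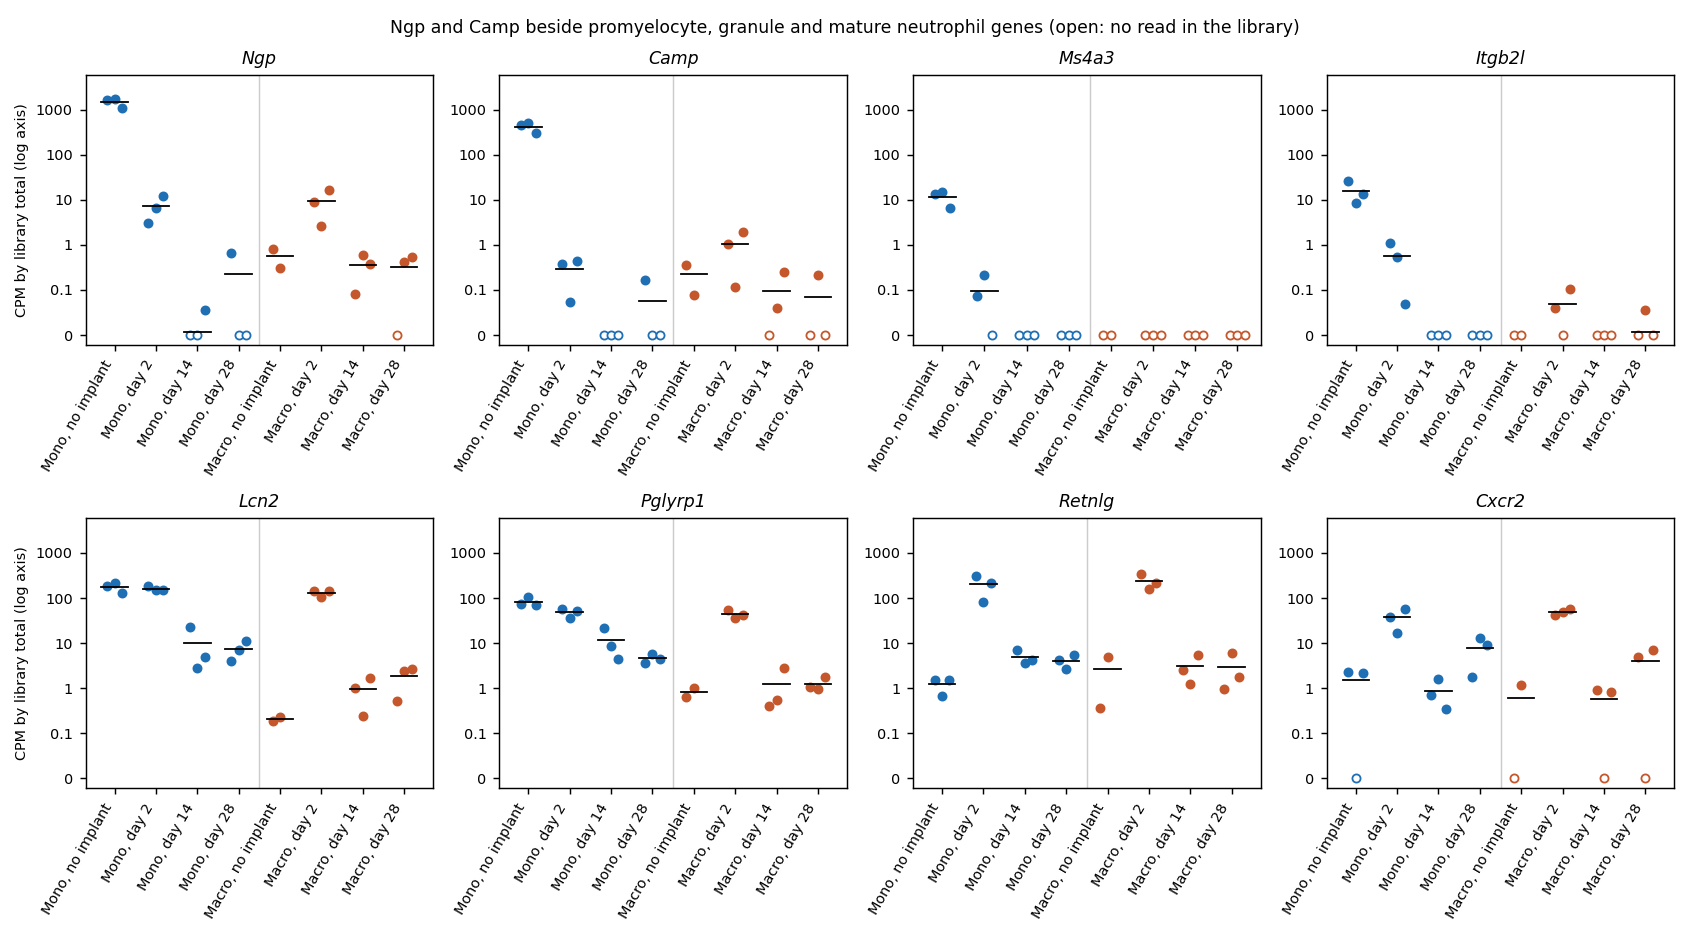
CPM by library total (log axis) of Ngp and Camp beside 6 other genes of granulocyte development in 23 libraries, with lines at group means and open points for libraries with no read. Ms4a3 and Itgb2l are high in control monocytes only among the 8 groups, Lcn2 and Pglyrp1 are high there and at day 2, and Retnlg and Cxcr2 are high at day 2 and at most 2.33 CPM in control monocytes.

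Of 8 granulocyte transcription factors, 7 were tested. In the 10 comparisons without control monocytes, the only call was a rise of Cebpe, a factor of late granulocyte maturation, in day 2 macrophages against controls. There 10.1% of all genes rose. Cebpa, needed for the step from early progenitor to granulocyte and monocyte precursor, measured 18.2, 19.8 and 31.1 CPM in control monocytes and 2.88 to 10.7 CPM in implant monocytes. Cebpd measured 71.6, 166 and 105 CPM there and 2.35 to 76.3 CPM in implant monocytes, with an overlap at day 28. Spi1, which encodes PU.1, measured 889 to 994 CPM in control monocytes, 56.0, 117 and 623 CPM at day 2, 47.2 to 137 CPM at day 14 and 711 to 804 CPM at day 28. Of 12 cell cycle genes, 4 fell in day 2 macrophages against controls (Aurkb, Cdk1, Mcm5 and Mki67), where 7.1% of all genes fell, and none was called from day 2 to later days in either cell type. The list summed to 126 to 182 CPM in control monocytes and 57.9 to 95.6 CPM in implant monocytes, and to 309 to 401 CPM in control macrophages.

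The genes most like each class were ranked by Pearson's r of log2(CPM + 1), as a description of libraries that share groups and depth. Over 23 libraries the 5 nearest to the mean of the primary granule genes were Serpinb10 (r = 0.954), Sntb1 (0.948), Nat8l (0.934), Bcl11a (0.933) and Itgb2l (0.921). The 5 nearest to the secondary granule genes were Igkc (0.975), Igha (0.974), Ms4a3 (0.969), Slco4c1 (0.967) and Prom1 (0.965). Igkc and Igha are immunoglobulin genes of the B cell lineage. They measured 205 to 562 and 208 to 652 CPM in control monocytes, and at most 13.5 and 0.479 CPM in the other 20 libraries. The 9 lymphoid markers summed to 29.9 to 60.3 CPM in control monocytes and 7.45 to 85.1 CPM elsewhere, and did not move alike. Against control monocytes, Cd79b was called lower in monocytes of days 14 and 28 (edgeR, adjusted p under 0.05). With RLE size factors the day 28 call was lost. Cd3d, Cd3e and Cd3g were called higher in day 2 monocytes.

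Without the control monocytes, over 20 libraries, the neighbours changed. The 5 nearest to the secondary granule genes were then Stfa2 (r = 0.921), Il23a (0.90), Ly6g (0.899), Prok2 (0.881) and Retnlg (0.873). Stfa2 and Prok2 had no read in control monocytes. The 5 nearest to the primary granule genes were Gapt (0.901), Rpsa (0.897), Dhrs1 (0.893), Tm2d2 (0.889) and Arhgdib (0.888), of which Arhgdib also had a mean of 1732 CPM in control monocytes and Rpsa 31.0 CPM. The primary mean over these 20 libraries followed Prtn3 (r = 0.94). Among members in the 20 libraries, r ran from 0.53 to 0.74 between pairs of primary genes and from 0.57 to 0.79 between pairs of secondary genes. Between the classes it ran from -0.11 (Ctsg with Camp) to 0.70 (Prtn3 with Ltf), so the ranges overlapped. Elane and Prtn3, next to each other on chromosome 10, had 0.66.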

How the data were processed

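RNA was amplified by SMART-Seq v4, tagmented with Nextera XT and sequenced as 75-base single reads, per the labels' protocols. Per the submitters' processing notes the authors used bcl2fastq, STAR 2.4.1d and featureCounts of Subread 1.5.1 with GRCm38. For the annotation release, the strand setting and reads with several matches, nothing is given in the sources used here. The authors deposited raw counts per gene, and 0 sample columns were left unused. Entries without a symbol (505) held 0.11% of counts and stayed in under their Ensembl IDs.

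The members, lists and named genes were chosen with earlier results of these data known. The 7 symbols matched 1 entry each in GENCODE M21 (GRCm38), which gave coordinates and exon lengths. Promoters came from RefSeq (GRCm38.p6). Named beside the members were the 4 highest genes of a list and the 5 most like each class, with pseudocount 1, while Lcn2, Pglyrp1, Cxcr2, Stfa2l1, Cxcr1 and C1qb, and genes listed with a count of calls, were picked after their values were seen.

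Counts were analysed with edgeR 4.0.16 in R 4.3.3: filterByExpr by group (16260 genes left), TMM scaling, a robust quasi-likelihood fit to all 23 libraries, prior count 0.125, and a call at a Benjamini-Hochberg adjusted p under 0.05. All 7 members passed the filter over the 8 groups, and those with few counts elsewhere did so because control monocytes are high. With only the 2 groups compared, 1 to 5 of the 7 passed. The standard error is the absolute log2 difference over the square root of F. A fold against a group at 0 is a bound against 3 counts over the group, and a group with 1 to 3 counts gives a ratio with its exact 95% counting interval. Shares of counts carry exact 95% binomial intervals. No contrast with control monocytes was tested for the members. P-values measure the spread between the libraries labelled as biological replicates.

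Alternatives were RLE size factors, no count filter, DESeq2 1.42.0, a replicate block, only the groups compared, a larger prior count (2) and the removal of single libraries in turn. On data simulated for day 2 against control macrophages (16260 genes), the fit recovered 82 of 200 genes changed 4-fold, with 4 false calls, so many changes of that size would be missed. The changed genes were drawn above a minimum mean count, at levels averaged over all libraries. The low macrophage levels of the members were therefore not simulated. No protein sequences were used here.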

Additional observations from a re-analysis of the deposited data

How the results depend on the processing

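The number of members called by edgeR's quasi-likelihood test depended on the low count filter. With no filter it was 4 in day 2, 1 in day 14 macrophages against controls, 4 and 4 in macrophages of days 14 and 28 against day 2, 5 and 5 in monocytes of these days, and 4, 4 and 2 between the cell types at days 2, 14 and 28. DESeq2 called 3 members in macrophages of day 14 against day 2, 2 in monocytes of day 28 against day 2 and 1 between the cell types at day 28. With only the groups compared it was 1 in day 28 against day 2 macrophages, 0 in day 28 against day 2 monocytes and 1 between the cell types at day 14. The replicate letter as a block gave 1 between the cell types at day 14 and the same number of members elsewhere. The letters are not described as pairs, and same-letter deviations correlated at -0.13 to 0.24, in 0 of 10 comparisons all over 0.1. Over all genes, the block moved 1 count by over 1.5 times, to 397 in place of 692 called in day 28 against day 2 macrophages.

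Leaving out 1 library at a time gave 0 to 3 members in day 2, 0 in day 14 and 0 to 1 in day 28 macrophages against controls. It gave 0 to 2 and 1 to 3 in macrophages of days 14 and 28 against day 2, 0 to 2 and 0 to 1 in monocytes, 0 to 1, 0 to 2 and 0 to 1 between the cell types at days 2, 14 and 28, and 0 in the interaction. A lone control macrophage library is then assumed to vary like the other groups. RLE size factors and a prior count of 2 kept each count within 1.5 times. For all genes, no filter and DESeq2 gave 682 and 334 calls in place of 77 in day 14 against day 2 macrophages, 1681 and 1898 in place of 692 at day 28, 741 and 583 in place of 118 in day 14 monocytes, and 1089 and 835 in place of 141 at day 28. Between the cell types they gave 1033 and 1190 in place of 556, 2494 and 2883 in place of 1523, and 1285 and 1182 in place of 409 at days 2, 14 and 28, and 677 and 312 in place of 0 in the interaction. DESeq2 gave 2281 in place of 1335 in day 14 macrophages against controls. With only the groups compared, 693 replaced 1717 in day 28 macrophages against controls, 145 replaced 77, 72 replaced 118, 18 replaced 141, and 1 replaced 409 between the cell types at day 28. Leaving out 1 library moved the counts of all genes, and so the background shares, to 826 to 2287 in place of 2797, 417 to 1128 in place of 1335 and 689 to 1880 in place of 1717 in macrophages of days 2, 14 and 28 against controls. It gave 29 to 108 and 137 to 1233 in macrophages of days 14 and 28 against day 2, 0 to 159 and 45 to 116 in monocytes, 269 to 384, 635 to 1432 and 69 to 1323 between the cell types, and 0 to 430 in the interaction. The lowest of these for day 2 against control macrophages was without control macrophage A, and the highest between the cell types at day 28 without day 28 macrophage C.

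The summed level of the members in control monocytes, 2524 CPM by library total, was 1899 with TMM and 1853 with RLE scaling, and 2384 to 2802 without 1 library. The log2 ratio of secondary to primary genes there, 4.48, was 4.45 to 4.52 without 1 library, 4.27 from raw counts, 6.13 without Elane, 4.74 without Mpo, 4.67 without Prtn3, 3.99 without Camp, 3.05 without Ngp and 4.36 without Ltf. The choices without Elane, Prtn3, Ctsg, Camp or Ltf were added after seeing the data. The causes of these shifts were not tested. Ctsg in day 28 macrophages and monocytes without monocyte C gave no value, since no count was left. In the libraries outside control monocytes most members had fewer than 100 counts, which limits the precision of every difference among them.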
